A study of Mus musculus with 58 samples.

Results

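Chromatin-associated RNA of an insert library was compared with the genomic DNA (gDNA) of the same screens at the Pou5f1 locus of mouse embryonic stem cells. Pou5f1 encodes Oct4, a transcription factor that maintains pluripotency. The 4 libraries described here, of 58 samples in the series, are the chromatin RNA libraries of screens 2 and 3 and the gDNA libraries that the labels tie to total RNA of screens 2 and 3. They were chosen by these labels and paired by screen number. An insert was kept if it had at least 50 reads in both gDNA libraries, which held for 14646 of 16461 inserts. The other 1815 inserts were not tested.

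All 4 libraries came from untreated F121-9 cells. These cells carry an mKate2 reporter on the 129 allele of Pou5f1, placed 172 nt from the upstream antisense start site (uaTSS), and TagBFP2 at the C terminus of Oct4. The inserts, each 175 nt long in the deposited references, were integrated on the 129 allele 157 nt from that start site, ahead of mKate2. Each insert is thus transcribed within 1 reporter RNA, at 1 site and in 1 engineered line, and the labels do not say that the screens came from separate clones or cultures. The p-values below therefore measure only the spread between these libraries. Chromatin RNA was isolated from washed chromatin pellets, treated with DNase and reverse transcribed from a primer in mKate2 that lies 221 nt downstream of the inserts. A read thus stands for an RNA that extended past the insert into the reporter and was still in the chromatin fraction.

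RNA polymerase II starts transcription in both directions at many mammalian promoters, and transcripts in the upstream antisense direction are usually ended early and degraded. RNA that stays with chromatin during a wash is enriched for molecules still attached to polymerase or awaiting processing, so it holds more unspliced RNA than total RNA does. Splicing removes an intron between a 5′ and a 3′ splice site and joins the flanks, and much of it takes place while the RNA is still being made. A recognised 5′ splice site can also protect a young transcript from premature cleavage.

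The files pair insert numbers with no gene, coordinate or sequence, so inserts are given by number and none of their sequences is printed. The sequence shown is reference genome DNA upstream of Pou5f1, since 1 locus drives every insert. Pou5f1 lies at chr17:35506032-35510777 (GRCm38), and the 250 bases directly upstream of the annotated gene, chr17:35505782-35506031 on the plus strand (RefSeq, GRCm38.p6), run toward the gene. They carry no capitals, because no motif was searched and neither the antisense start site nor the insert site was placed in them.

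Pou5f1 upstream: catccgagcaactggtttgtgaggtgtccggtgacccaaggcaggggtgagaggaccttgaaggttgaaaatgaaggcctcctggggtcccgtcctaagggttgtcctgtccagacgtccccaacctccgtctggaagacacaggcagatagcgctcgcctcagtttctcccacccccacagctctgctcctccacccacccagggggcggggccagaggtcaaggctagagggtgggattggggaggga

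The chromatin libraries of screens 2 and 3 held 16790568 and 14578786 reads on the insert references, and their gDNA libraries held 14956180 and 13481092. Reads without a reference made up 50.0% to 52.2% of each of the 4 libraries. Spliced reads were 3.39% of the chromatin reads in screen 2 and 2.99% in screen 3. Every count was even, as counting both mates of a pair gives, so intervals below are computed on read pairs. The libraries carry no molecular identifiers, so intervals and limits cover counting error only.

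The comparison of chromatin RNA with gDNA asks whether an insert is higher or lower in the RNA than in the DNA once the libraries are scaled. The level of an insert is the log2 ratio of its chromatin RNA to its gDNA in a screen, after scaling the libraries by TMM (trimmed mean of M values). A level of 0 thus need not be an equal share of the reads. Levels ranged widely in both screens and were skewed toward low values. In screen 2 the median was -0.13, the middle 50% of inserts lay between -1.10 and 0.63, and the lowest 10% were under -2.75. In screen 3 the median was -0.13, the middle 50% lay between -1.16 and 0.63, and the lowest 10% were under -3.10. The highest levels were 6.80 and 6.74. The upper tail was shorter than the lower tail, with 10% of inserts above 1.29 in screen 2 and above 1.23 in screen 3.

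The same inserts tended to be high or low in both screens, with wide scatter. Across the 14646 inserts the levels of the screens had a Pearson correlation of 0.410 and a Spearman correlation of 0.461, and inserts of 1 library are not independent replicates. The median absolute difference between screens was 0.88 on the log2 scale, a 1.84-fold difference. Agreement was closest at the greatest gDNA depth. Among the 1295 inserts that averaged under 200 gDNA reads the Pearson correlation was 0.372 and the median difference 1.55. From 200 to under 500 reads these were 0.326 and 1.33, and from 500 to under 2000 reads 0.441 and 0.78. Among 1271 inserts with 2000 or more it was 0.617 and the median difference 0.50. The difference between screens thus shrank with depth, while the correlation was lowest in the second class.

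More than 2-fold above gDNA in both screens were 846 inserts (5.78%). More than 2-fold below in both were 2048 (14%). Opposite directions by more than 2-fold were seen for 429 (2.93%). Of the 2048 low inserts, 1132 had reads in both chromatin libraries and 916 had a library with no read. Beyond 4-fold in both screens, 90 inserts were higher and 837 lower. A complete lack of reads was common. No chromatin read was counted for 962 inserts (6.57%) in screen 2 and 1086 (7.41%) in screen 3. Of these, 346 had none in either library, at a mean of 55 to 1245 gDNA reads (median 198.5). Of the 346, 237 had reads in total RNA of screen 2 or 3 and 109 had none there either.

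Each insert was then tested with edgeR's quasi-likelihood test, with the screen as a block. All 13 untreated RNA and gDNA libraries at this site were fitted together, since 2 libraries of a kind give almost no estimate of the spread. Of 14646 inserts, 372 (2.54%) passed an adjusted p of 0.05 (Benjamini-Hochberg over all inserts). Chromatin RNA was higher than gDNA for 266 (1.82%) and lower for 106 (0.724%), each in the same direction in both screens. Among the 106 lower inserts, 52 had no read in either chromatin library and 16 had none in 1 of them. The higher inserts had log2 fold changes of 1.21 to 6.01, with a median of 1.89.

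These calls lean on the other libraries in the fit. Those libraries share the estimate of the spread and, through the screen terms, also bear on the fitted fold changes. A fitted fold change can thus lie outside the levels of both screens. With the 4 chromatin and gDNA libraries alone edgeR called 0 inserts, although 1866 had an unadjusted p under 0.05, and without the libraries of screen 4 it called 1. DESeq2 on the 13 libraries called 1839, 43.9% of them higher, against 71.5% by edgeR. Scaling by library totals gave 290 calls, 55.2% of them higher, and moved the median fold change of all inserts from -0.13 to -0.36. Without screen 1, 2 or 5 edgeR called 218, 99 and 141 inserts, and without screen 2 only 16 of the 99 were higher. Without screen 3 it called 481, of which 129 were higher.

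**Figure D1:**
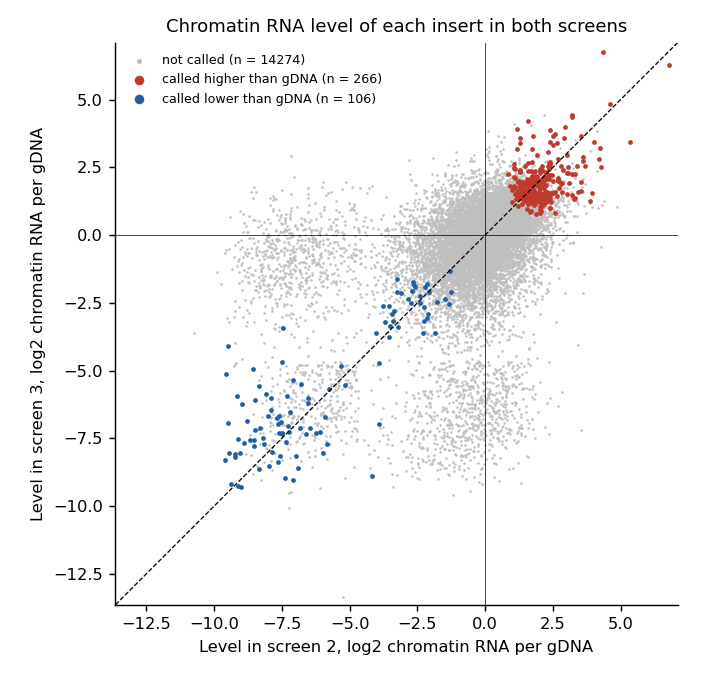
Level of each of 14646 inserts in screen 2 (x axis) and screen 3 (y axis), as log2 chromatin RNA per gDNA, where the dashed line marks equal levels. The 266 inserts called higher (red) and 106 called lower (blue) lie on the same side of 0 in both screens, and the bands far below 0 hold inserts with no or few reads in a chromatin library.

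Among called inserts with a mean of at least 200 gDNA reads, sequence_08500 had the largest log2 fold change. It has no spliced reference. It had 33496 and 68666 chromatin reads in screens 2 and 3, against 300 and 928 gDNA reads. Its levels of 6.80 and 6.27 stood clear of 0 in both screens. The fitted log2 fold change was 6.01 (SE 0.72, edgeR adjusted p = 0.0102), below the level of either screen. In total RNA of the same screens it had 1112 and 12954 reads. Its call was lost with the 4 libraries alone (edgeR adjusted p = 0.106), with the 6 libraries of screens 2 and 3 (0.107) and without screen 4 (0.0646). Without screen 2 the log2 fold change was 5.01.

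The next highest, sequence_12550, was mostly spliced. It had 4686 and 4190 chromatin reads against 292 and 404 gDNA reads, giving levels of 4.00 and 3.43. Its log2 fold change was 3.76 (SE 0.36, edgeR adjusted p = 0.00464). Spliced reads, which lack 128 nt of the insert, were 74.8% of its chromatin reads in screen 2 and 91.6% in screen 3. Counted on unspliced reads alone, its log2 fold change was 0.64 and did not pass (edgeR adjusted p = 0.746). The call was also lost with the 4 libraries alone (0.332) and with the 6 libraries of screens 2 and 3 (0.107).

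Among inserts without a spliced reference, sequence_14730 followed sequence_08500. It had 7098 and 27926 chromatin reads against 772 and 1354 gDNA reads, and levels of 3.20 and 4.42. Its log2 fold change of 3.69 (SE 0.65, edgeR adjusted p = 0.0217) missed the threshold without screen 3, where it was 2.49 (edgeR adjusted p = 0.0916), and without screen 4 (0.0888). It also missed it with the 4 libraries alone and with the 6 libraries of screens 2 and 3.

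At the low end, sequence_10736 had no chromatin read in either screen, against 1114 and 376 gDNA reads. Set against a floor of 3 read pairs over both libraries, it was at least 243-fold lower in chromatin RNA (edgeR adjusted p = 0.0139). This bound covers counting error alone and not the loss of an insert from a library. The same insert had 262 and 274 reads in total RNA of screens 2 and 3. In nascent (run-on) RNA of screens 4 and 5 it had 2262 and 804 reads, against 2054 and 1576 gDNA reads there. A second insert without chromatin reads, sequence_06822, had 506 and 744 gDNA reads and was at least 204-fold lower on the same floor (edgeR adjusted p = 0.0273). It had 52 and 216 reads in total RNA of screens 2 and 3. Its run-on reads in screens 4 and 5 were 300 and 550, against 1200 and 1160 gDNA reads there. Both calls were lost with the 4 libraries alone, with the 6 libraries of screens 2 and 3, without screen 2 and without screen 4, and that of sequence_06822 also without screen 5.

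Median levels differed along the insert numbers, in a like way in both screens. The labels do not explain the order of the numbers, and the ranges below were joined from blocks of 1000 after their values were seen. The 5507 inserts numbered 1 to 5999 had median levels of 0.23 in screen 2 and 0.20 in screen 3. The 5141 inserts numbered 6000 to 11999 had medians of -0.53 and -0.58. The first range was higher by 0.76 in screen 2 and 0.78 in screen 3, a mean of 0.77 ± 0.01 (SD, n = 2) or 1.70-fold. With 2 screens no test over screens was made.

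Because the ranges were joined by their block medians, the separation of these medians follows from that choice. Block medians of the first range lay between -0.06 and 0.37 in screen 2 and between -0.04 and 0.37 in screen 3. Those of the second lay between -0.63 and -0.42 and between -1.06 and -0.37. Of the first range, 3.05% of inserts were called higher and 0.291% lower, against 1.82% and 0.724% of all inserts. Of the second range, 0.311% were called higher and 1.19% lower. No chromatin read was counted for 3.07% and 4.27% of the first range, and for 10.8% and 11.3% of the second.

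gDNA depth moved with the insert numbers. The median mean gDNA count was 783.5 to 1018 reads by block in the first range and 529 to 671.5 in the second. Below 200 gDNA reads the medians were 0.11 and -0.18 in the first range, against -0.52 and -1.12 in the second. From 200 to under 500 reads they were 0.10 and -0.04, against -0.60 and -0.77. From 500 to under 2000 gDNA reads the medians were 0.22 and 0.21 in the first range, against -0.54 and -0.49 in the second. At 2000 reads or more they were 0.36 and 0.42, against -0.22 and -0.24. The part of depth in the difference between the ranges was not tested.

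The block from 12000 to 12999 broke the pattern. Its 867 inserts had medians of 0.29 and 0.25, and 54 of them (6.23%) were called higher. In this block 77.6% of inserts have a spliced reference. The 194 inserts of the block without one had a median of -0.67 in both screens, below the median of inserts without one in the whole library (-0.20 in both). The 3131 inserts from 13000 on had medians of -0.30 and -0.18.

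**Figure D2:**
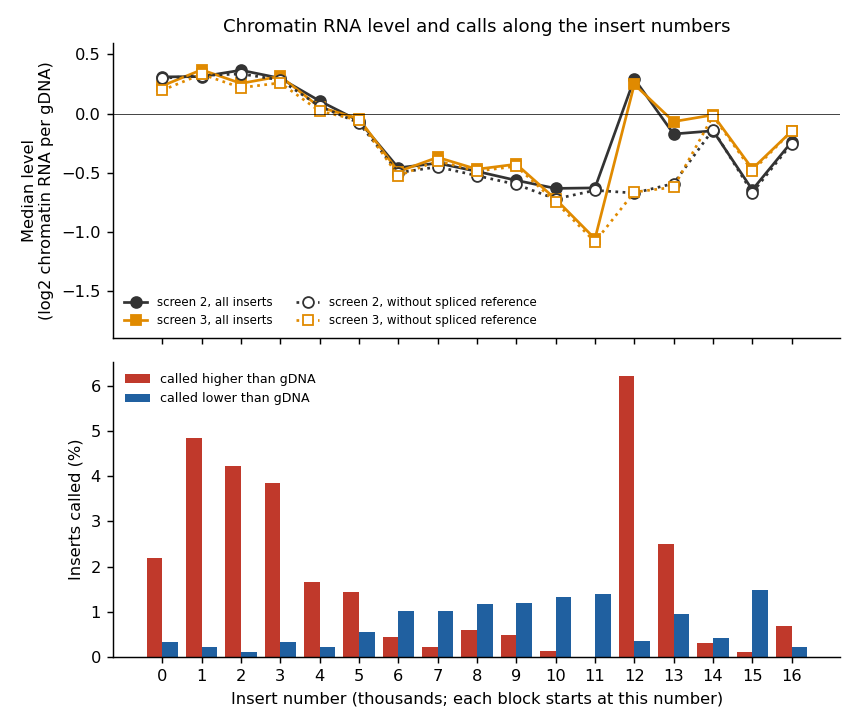
Top, median level (log2 chromatin RNA per gDNA) of each block of 1000 insert numbers in screen 2 (circles) and screen 3 (squares), for all inserts (filled) and those without a spliced reference (open). Bottom, share of inserts called higher (red) or lower (blue) than gDNA, which peaks at 6.23% higher in the block from 12000, where the filled and open symbols part.

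Splicing within inserts is read from the deposited references. Of 16461 inserts, 2404 have at least 1 spliced reference, that is, a version of the insert from which 21 to 155 nt (median 100) are removed. Of these, 2259 have 1 such form and 145 have 2 or 3. The labels do not say how these forms were chosen. A choice that depended on RNA reads thus cannot be told apart from the differences in level below.

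Inserts with a spliced reference were higher in chromatin RNA. Their median levels were 0.30 and 0.35 in screens 2 and 3, against -0.20 in both for inserts without one, a gap of 0.53 ± 0.04 (SD, n = 2). Of the 2126 tested, 5.6% were called higher and 0.235% (5 inserts) lower. Of the 12520 without a spliced reference, 1.17% (147 inserts) were called higher and 0.807% lower. Counted on unspliced reads alone the gap was 0.092, with 0.028 in screen 2 and 0.16 in screen 3. Leaving out spliced reads can only lower inserts that have a spliced reference, so this drop does not place the gap. On unspliced reads, inserts that lose under 70 nt had medians of 0.07 and 0.15. At 70 to 94 nt the medians were -0.18 and -0.07, from 95 to under 120 nt -0.20 and -0.03, and at 120 nt or more -0.25 and -0.19. Spliced amplicons are shorter than unspliced ones by the length removed, and the part of amplicon length in these ratios was not tested.

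Median levels by the length removed did not follow a steady order. Inserts that lose under 70 nt had median levels of 0.13 and 0.24 (n = 324), and 1.54% were called higher. Those that lose 70 to 94 nt had 0.36 and 0.38 (n = 611), and 5.89% were called higher. Those that lose from 95 to under 120 nt had 0.40 and 0.45 (n = 557), and 46 of them (8.26%) were called higher. Inserts that lose 120 nt or more had 0.33 and 0.28 (n = 504), and 5.56% were called higher. Inserts with 2 or more forms had 0.20 and 0.35 (n = 130), and 3.08% were called higher. Over all inserts 1.82% were called higher.

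The spliced share is the percentage of an insert's chromatin reads that match a spliced reference. It was taken where each chromatin library had at least 20 reads of an insert, which held for 2057 of 2404. The spliced share of an insert on chromatin was most often low. The median share was 5.00% in screen 2 and 4.90% in screen 3 (4.95% ± 0.068, SD, n = 2), while the upper quartile began at 43.6% and 39.2%. Pooled over the reads of these inserts, 21.2% and 18.8% were spliced. No spliced read was seen in either screen for 686 inserts (33.3%). By mean share, 761 inserts were under 1%, 343 at 1 to 10%, 495 at 10 to 50%, 386 at 50 to 90% and 72 at 90% or more.

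Shares were compared between the screens insert by insert. Across the 2057 inserts, shares of screens 2 and 3 had a Pearson correlation of 0.764 and a Spearman correlation of 0.778. Among the 1011 with spliced reads in both screens the median difference was 11.0 percentage points.

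The fully spliced extreme was mostly made of inserts with few reads. All reads were spliced in both screens for 40 inserts, with medians of 145 and 118 reads. Only 1 of them had at least 500 reads in both libraries. That insert, sequence_13471, had 566 and 810 chromatin reads, all spliced (exact binomial 95% lower bounds 98.7% and 99.1%), and loses 98 nt. It was also 100% spliced in total RNA of both screens. Next came sequence_12853, which loses 105 nt and was spliced in 100% of 1138 reads in screen 2 (exact 95% interval 99.4% to 100%) and 89.2% of 1110 in screen 3 (86.3% to 91.6%).

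The 2 inserts nearest a chromatin share of 50% are given beside their total RNA, without a test. For sequence_13898, which loses 129 nt, 60.7% of 616 chromatin reads were spliced in screen 2 (exact 95% interval 55.0% to 66.2%) and 40.1% of 1820 in screen 3 (36.9% to 43.4%). In total RNA of the same screens its shares were 96.9% and 98.7%. Both chromatin shares lay below both total RNA shares. For sequence_12825, which loses 110 nt, the shares were 47.2% of 1110 and 51.9% of 624 chromatin reads, against 84.8% and 82.8% in total RNA. The exact 95% intervals of its chromatin shares, 43.0% to 51.5% and 46.2% to 57.6%, overlapped. Such overlap was not the rule. Of 1070 inserts with at least 500 reads in both chromatin libraries, 516 (48.2%) had intervals that lay apart between screens. At a mean share of 10 to 90% this held for 332 of 456 (72.8%), so the intervals understate the spread between screens.

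Other inserts with a spliced reference were deeply read and not detectably spliced. Where no read was spliced, the limit given is 3 read pairs of the insert's total. Of 11496 and 23678 chromatin reads of sequence_15866, which would lose 84 nt, 0 were spliced, which allows shares of up to 0.0522% and 0.0253%. In total RNA its shares were 0.695% and 0.569%. It was a high insert, with levels of 2.63 and 3.38. Of 10366 and 11158 reads of sequence_11010, which would lose 112 nt, 0 were spliced, which allows up to 0.0579% and 0.0538%.

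Shares rose with the length removed. Inserts that lose under 70 nt had a median share of 0% in both screens, and 65.3% of the 303 had no spliced read in either. At 70 to 94 nt the medians were 7.42% and 7.61% (n = 590), from 95 to under 120 nt 10.2% and 9.81% (n = 548), and at 120 nt or more 15.0% and 11.5% (n = 485). Of the last class, 30.3% had a mean share of at least 50%. Across 1926 inserts with 1 form the Spearman correlation of share with length removed was 0.249 in screen 2 and 0.258 in screen 3. Lengths thus went with a small part of the differences among inserts. The parts of amplicon length and insert number in the rise of shares with length were not tested.

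**Figure D3:**
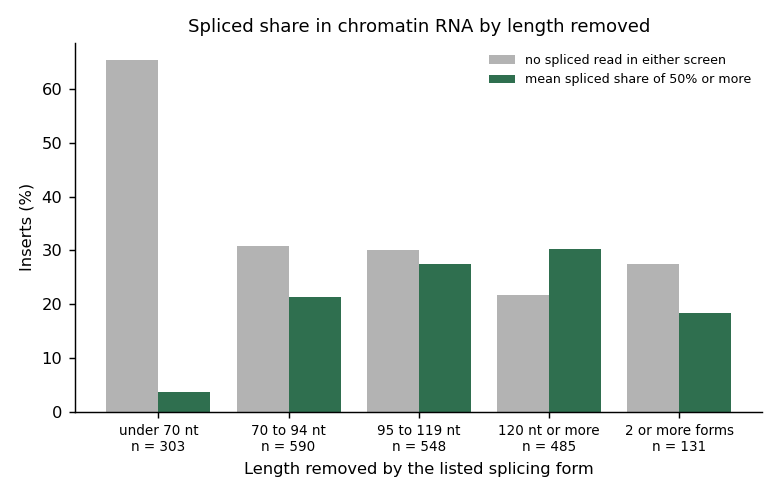
Share of inserts with no spliced chromatin read in either screen (grey) and with a mean spliced share of at least 50% (green), by the length that the spliced form removes. The grey bar falls from 65.3% under 70 nt while the green bar rises to 30.3% at 120 nt or more.

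Among the 145 inserts with several forms, 55 had at least 20 spliced reads in each chromatin library. The same form led in both screens for 42 of these 55. The leading form took a median of 92.7% of an insert's spliced reads in screen 2, and that form took 91.0% in screen 3. The form that removes most led in 26 of the 55 inserts in screen 2 and 25 in screen 3.

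Well spliced inserts were gathered in a narrow range of numbers. Of 458 inserts with a mean share of at least 50%, 290 were numbered 12000 to 12999 and 82 were numbered 13000 to 13999. Together these blocks hold 1027 of the 2057 inserts with shares. The median share was 41.2% and 35.1% in the first of them and 10.4% and 7.82% in the second. In every other block the median was 0% in both screens.

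To set level against splicing without using a library for both, the share was taken from 1 screen and the level from the other, for 1933 inserts. The level rose with the share up to the class of 50 to 90%. With shares of screen 2, the median level in screen 3 was 0.22 for inserts under 1% spliced, 0.45 at 1 to 10%, 0.52 at 10 to 50%, 1.08 at 50 to 90% and 0.89 at 90% or more. With shares of screen 3, the medians in screen 2 were 0.11, 0.38, 0.47, 1.144 and 0.90. The 10735 inserts without a spliced reference and with the same read minimum had medians of -0.05 in screen 2 and -0.03 in screen 3. The Spearman correlation of level with share was 0.256 and 0.282. The level counts spliced reads and shares go together between screens, so crossing the screens does not make level and share independent. The parts of amplicon length and insert number in this rise were not tested.

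Unspliced reads alone gave another order. Their median level in screen 3, by shares of screen 2, was 0.18 under 1%, 0.31 at 1 to 10%, 0.07 at 10 to 50%, -0.29 at 50 to 90% and -1.03 at 90% or more. In screen 2, by shares of screen 3, the medians were 0.07, 0.24, -0.20, -0.63 and -0.81. The classes are set by the spliced share, which goes together between screens, so few unspliced reads in the upper classes follow from the classing.

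**Figure D4:**
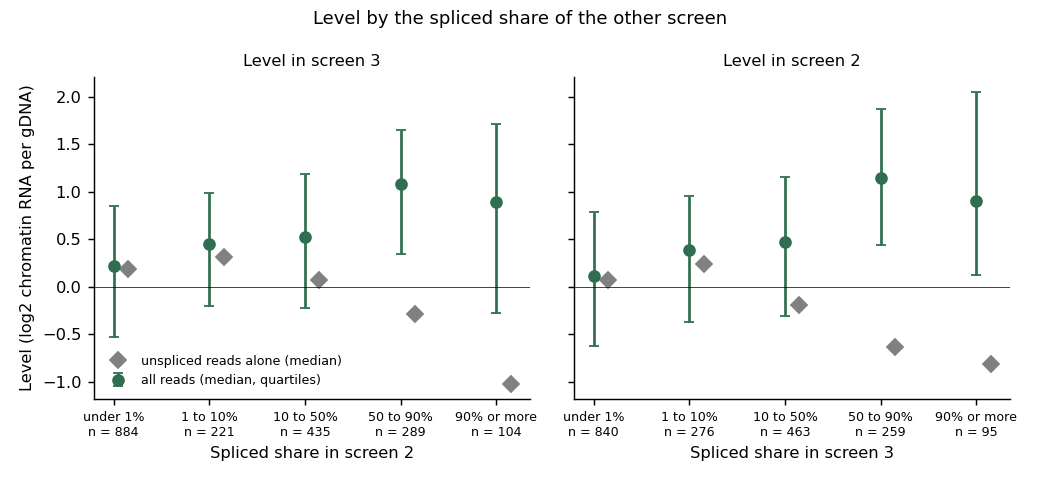
Level (log2 chromatin RNA per gDNA) in screen 3 by the spliced share in screen 2 (left), and in screen 2 by the share in screen 3 (right), with green points and bars for the median and quartiles of all reads and grey diamonds for the median of unspliced reads alone. Medians of all reads rise to 1.08 and 1.144 at 50 to 90% spliced, while those of unspliced reads fall to -1.03 and -0.81 at 90% or more.

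Spliced shares in chromatin RNA were set beside those in total RNA of screens 2 and 3. Where all 4 libraries had at least 20 reads of an insert, median shares were 5.54% and 5.44% in chromatin RNA and 20.8% and 25.7% in total RNA. The chromatin share was below the total RNA share in both screens for 991 inserts and above it in both for 43. The other 965 inserts had no such common direction, and 284 of them had no spliced read in any of the 4 libraries. Of the 337 inserts that were at least 90% spliced in both total RNA libraries, the median chromatin share was 73.0% in screen 2 and 70.9% in screen 3. Of these 337, 36 were at least 90% spliced in both chromatin libraries and 25 were under 50% in both. The 337 were picked by their high total RNA shares, so lower chromatin shares among them follow in part from that choice. Total RNA itself varied between screens. Of its reads on all references, 8.3% and 10.0% were spliced in screens 2 and 3, against 19.1% and 22.4% in screens 1 and 4. What sets the share in total RNA was not tested.

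No single insert passed the test of this difference. The edgeR test on spliced and unspliced counts, with 2 libraries of each kind, called 0 of 1698 inserts (percentage called 0). At an unadjusted p under 0.05 it had 235, and limma on logit shares called 0 with 321 at that p. The lower shares in chromatin RNA are thus a pattern over many inserts in both screens that was not shown for any 1 insert.

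**Figure D5:**
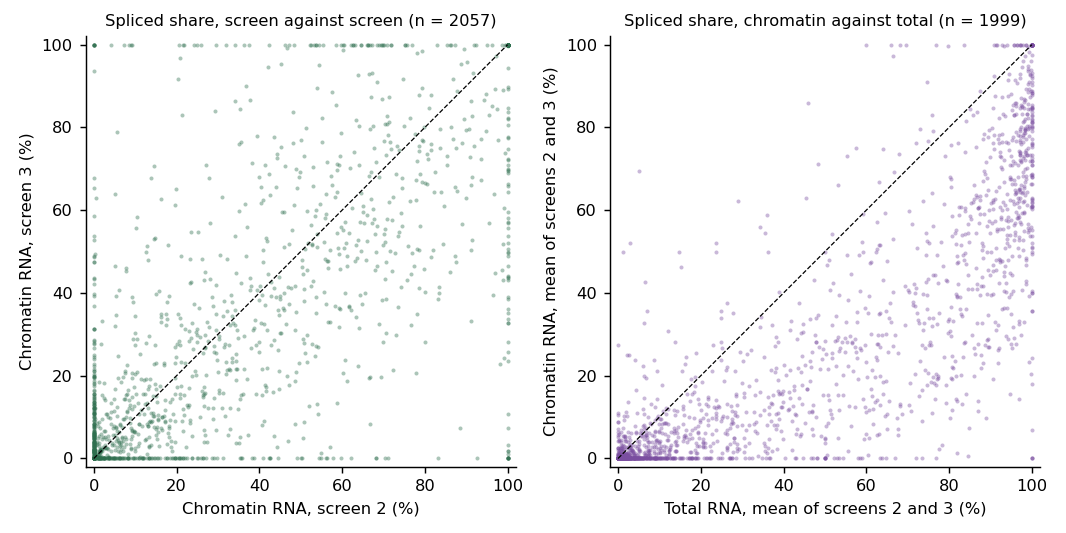
Left, spliced share of 2057 inserts in chromatin RNA of screen 2 (x axis) and screen 3 (y axis), in percent. Right, mean share over screens 2 and 3 in total RNA (x axis) and chromatin RNA (y axis) for inserts read in all 4 libraries, many of which lie below the dashed line of equal shares, as 991 were lower in both screens and 43 higher in both.

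Levels were also set beside readouts that share no library with these screens. Each is given as RNA per gDNA of its own screen. The Spearman correlation of chromatin RNA levels with total RNA of screens 1 and 4 was 0.472 to 0.506 (n = 10730 and 14326). With the run-on RNA libraries, which the labels call nascent, it was 0.315 to 0.377 (n = 14326). These are correlations across inserts, and the points share the library design and the insert's length.

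Separate sort-seq libraries counted the inserts in cells sorted into 6 bins, and the authors deposited a score over these bins. The score is read here as the mean bin of an insert. The labels do not say what the cells were sorted on. The 1773 inserts with a mean bin of 1 to 2 had median chromatin RNA levels of -0.91 and -0.97. Medians rose through each bin class to 0.53 and 0.64 for the 1388 inserts with a mean bin of 5 to 6. Of the highest class, 128 inserts (9.22%) were called higher in chromatin RNA and 4 (0.288%) lower. Of the lowest class, 3 (0.169%) were called higher and 30 (1.69%) lower. Over all inserts these shares were 1.82% and 0.724%. Median gDNA counts were 573 to 969 reads over these classes.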

How the data were processed

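Chromatin RNA, gDNA and, beside them, total and run-on RNA libraries of untreated cells were analysed. The submitters' processing notes name cutadapt 1.14 and Bowtie2 2.3.4.3. The deposited counts are reads per unspliced or spliced insert reference, per the file headers, and both were summed per insert for RNA. The authors' deposited ratio columns of chromatin RNA equalled the counts of screens 2 and 3 over gDNA up to constants of 1.36 and 1.25. That table names no insert, so its rows were matched by order, which these constants check. Its sort-seq scores were used as deposited. Levels used TMM scaling and a prior count of 2.

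Chromatin RNA was tested against gDNA with edgeR 4.0.16 in R 4.3.3 (13 libraries, kind and screen as terms). The labels pair RNA and gDNA by screen, and deviations of chromatin RNA and gDNA of the same screen had a correlation of 0.233. DESeq2 1.42.0 and limma 3.58.1 were alternatives, with other filters, scalings and left-out screens. The spliced share test also left out inserts with no spliced or no unspliced read in the libraries used. Procedures were also run on simulated counts without screen effects on single inserts, which says nothing about the stability of the calls above.

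Members, lists and tests were chosen with earlier results of these data known. Named inserts passed the test in the same direction in both screens with a mean of at least 200 gDNA reads, and 2 with the largest fold change were printed per direction, over all inserts and among those without a spliced reference. For shares, at least 500 reads in each chromatin library were required, and 2 inserts each were printed for the highest shares, those nearest 50% and those with most reads among inserts with none spliced.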

Additional observations from a re-analysis of the deposited data

How the results depend on the processing

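The count of inserts called between chromatin RNA and gDNA (372) was 1839 with DESeq2, 0 with the 4 libraries of chromatin RNA and gDNA alone and 0 with the 6 libraries of screens 2 and 3, where 2298 had an unadjusted p under 0.05 by edgeR. It ranged from 1 to 481 when each screen was left out, and the lone chromatin library was then assumed to vary like the others where screen 2 or 3 was left out. Without the screen as a replicate block 378 inserts were called, 215 higher and 163 lower, of which 235 were also called with it. With at least 1, 200 or 50 reads (the last in every gDNA library) the counts were 384, 435 and 478, with unspliced reads alone 313, and with library totals 290. The gap in level between inserts with and without a spliced reference (0.53) was 0.092 on unspliced reads alone, 0.57 with at least 1 gDNA read, 0.46 with at least 200, and 0.50 to 0.55 by screen. The median spliced share of chromatin RNA (4.95%) was 5.11% with at least 100 reads, 4.62% with at least 1 read, 20.0% when reads were pooled over inserts, and 4.90% to 5.00% by screen. The spliced share test against total RNA called 0 inserts in each alternative run, with 253 to 475 at an unadjusted p under 0.05 (255 with the replicate block). With 2 chromatin libraries, or 1 where a screen was left out, this says nothing about stability. No named insert changed sign under any alternative run. The cause of these shifts was not tested. Depth limits single inserts: at a mean of under 200 gDNA reads, 42.6% had no read in at least 1 chromatin library, against 0.236% at 2000 or more.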
